A study of Sus scrofa with 2 samples.

Results

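The genes described here make GABA, the main inhibitory transmitter of the forebrain, load it into vesicles, take it up and break it down, or carry its slow signal through the GABA-B receptor, together with a scaffold of inhibitory synapses and a transcription factor of inhibitory neurons. They were chosen by name, as the rows of the gene table whose pig Ensembl ID is paired with GAD1, GAD2, SLC32A1, SLC6A11, ABAT, GABBR1, GABBR2, GPHN or LHX6. Of these 9 names, 8 had a row among the 25322 gene IDs; SLC6A11, a GABA transporter of astrocytes, is not analysed here.

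The values come from RNA sequencing of Rongchang piglet hippocampus, the part of the forebrain best known for its role in memory; the labels give the genotype as "wide type". The groups were iron dextran, an iron preparation bound to the polysaccharide dextran and used to prevent anaemia in piglets, with 1 sample, and control, with 1 sample. Each sample's label lists 2 names without saying whether these were animals, libraries or runs, and no source used here gives the dose, the sex or an age beyond "piglet". Because each group was 1 sample there was no spread between replicates; this leaves every difference below untested and without a replicate check.

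In inhibitory neurons glutamate is turned into GABA by glutamate decarboxylase, which exists in a form found through the whole cell (GAD1) and a form held at nerve endings (GAD2). The vesicular transporter SLC32A1 then fills synaptic vesicles. Released GABA opens GABA-A receptor channels, which gephyrin (GPHN) holds at the synapse, and acts more slowly through the GABA-B receptor, a pair of GABBR1, which binds the transmitter, and GABBR2, which engages the G protein. After uptake, GABA transaminase (ABAT) starts its breakdown in mitochondria of neurons and astrocytes. LHX6, a LIM homeobox factor, is known in mouse for specifying the interneurons that later express somatostatin or parvalbumin.

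Most of these genes were slightly higher in the iron dextran sample than in control, and none of the 8 differed by 1.5-fold. Levels are in FPKM, which divides a gene's fragments by its transcript length and by the mapped fragments of the sample. Every difference is that of log2(FPKM + 1) between iron dextran and control, positive where iron dextran was higher. All 8 genes had a mean of at least 1 FPKM, the limit used for measured genes. Of the 8, 0 were at least 1.5-fold higher, where 2.47% of the 12557 measured genes were, and 0 were at least 1.5-fold lower, where 1.47% were. With a looser rule, the higher value at least 25% above the lower, the counts were again 0 of 8 in each direction, where 8.81% of measured genes were higher and 5.96% lower, and at 2-fold 0.741% and 0.422% were. A count of 0 of 8 is near those shares and is not a result about these genes. The difference was above 0 for 7 of the 8, against 49% of measured genes. Their median was 0.11, against −0.0046 over all measured genes, and their differences ran from −0.11 to 0.23, close to the middle range of the table, whose quartiles were −0.12 and 0.14.

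**Figure D1:**
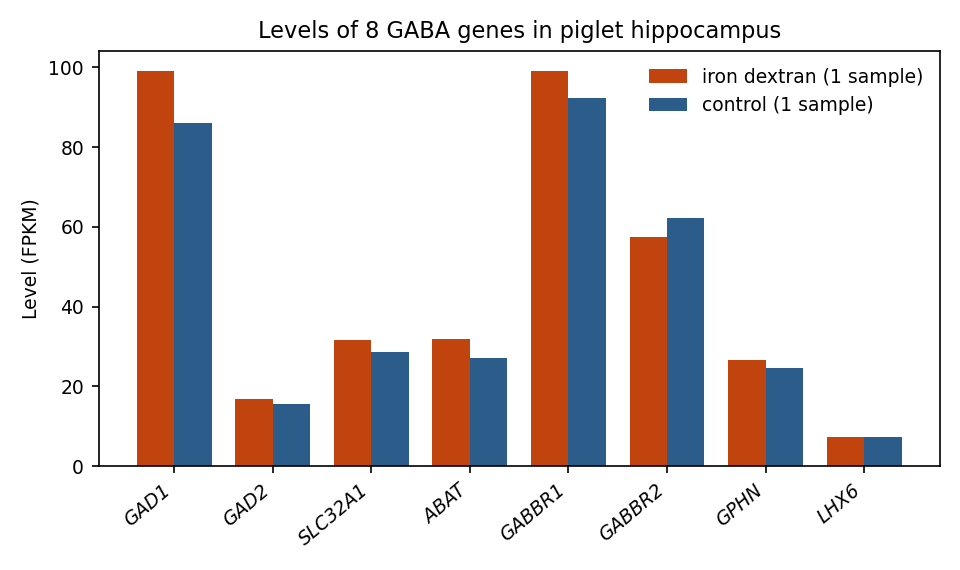
Level in FPKM of the 8 genes (horizontal axis) in the iron dextran sample (left bar of each pair) and the control sample (right bar), with 1 sample per bar and no error bar. GAD1 and GABBR1 stand highest in both samples, LHX6 lowest, and GABBR2 is the gene whose iron dextran bar is the shorter of its pair.

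The synthesis enzymes were both a little higher in iron dextran. GAD1 (ENSSSCG00000022233) had 99.2 FPKM in iron dextran and 86.1 FPKM in control, a ratio of 1.15 and a difference of 0.20. Among measured genes, 17.4% had a larger difference than GAD1. GAD2 (ENSSSCG00000011060) had 16.9 FPKM in iron dextran and 15.6 FPKM in control, a ratio of 1.09 and a difference of 0.11. The cell-wide form was thus the more abundant in both samples. The level of GAD1 was 5.85 times that of GAD2 in iron dextran and 5.52 times in control, a balance that multiplying a whole column by 1 factor leaves unchanged. The summed level of both enzymes was 116 FPKM in iron dextran and 102 FPKM in control.

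The vesicular transporter had a difference between those of the enzymes. SLC32A1 (ENSSSCG00000007348) had 31.5 FPKM in iron dextran and 28.6 FPKM in control, a ratio of 1.104 and a difference of 0.14. Set against the summed level of GAD1 and GAD2, it stood at 0.272 in iron dextran and 0.281 in control. The proportion of transporter to enzyme transcripts thus differed by −0.05 on the log2 scale.

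The degrading enzyme had the largest difference of the 8 genes. ABAT (ENSSSCG00000007909) had 31.9 FPKM in iron dextran and 27.0 FPKM in control, a ratio of 1.18 and a difference of 0.23, and 14.8% of measured genes had a larger one. Its level relative to the summed synthesis enzymes was 0.275 in iron dextran and 0.266 in control, a log2 ratio of 0.05. Transcripts for making and for degrading GABA thus stood in nearly the same proportion in both samples, with no replicate spread to set that against.

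The subunits of the GABA-B receptor had small differences of opposite sign. GABBR1 (ENSSSCG00000001242) had 99.2 FPKM in iron dextran and 92.4 FPKM in control, a ratio of 1.07 and a difference of 0.10. GABBR2 (ENSSSCG00000027558) had 57.4 FPKM in iron dextran and 62.1 FPKM in control, a ratio of 0.924 and a difference of −0.11, which became 0.0063 with both columns scaled to an equal total. The level of GABBR1 was 1.73 times that of GABBR2 in iron dextran and 1.49 times in control. This was the largest shift among the 6 ratios between these genes that were computed, at 0.22 on the log2 scale. Multiplying a whole column by 1 factor cannot alter it, whereas centring by expression level can. The summed level of both subunits was 157 FPKM in iron dextran and 155 FPKM in control.

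Gephyrin, which besides anchoring receptors carries out the last steps of molybdenum cofactor synthesis, had little difference. GPHN (ENSSSCG00000002285) had 26.5 FPKM in iron dextran and 24.7 FPKM in control, a ratio of 1.08 and a difference of 0.10. In another pig assembly, Sscrofa11.1, GPHN and GABBR2 each overlap 1 long non-coding RNA gene. Whether counting used strand is not stated, so fragments from such overlaps could not be told apart; the other 7 names had no overlapping gene there.

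LHX6 was the lowest of the 8 and had the smallest difference. LHX6 (ENSSSCG00000005530) had 7.38 FPKM in iron dextran and 7.24 FPKM in control, a ratio of 1.02 and a difference of 0.02, which became −0.0411 when differences were centred by expression level. Relative to the summed synthesis enzymes it stood at 0.0636 in iron dextran and 0.0712 in control, a log2 ratio of −0.16. In bulk tissue, fewer cells of a type and less RNA per cell cannot be told apart, so this ratio does not say whether the cells or their transcripts differed.

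Across the 8 genes the order of levels was nearly the same in both samples. In iron dextran GABBR1 and GAD1 were both at 99.2 FPKM, followed by GABBR2, ABAT, SLC32A1, GPHN, GAD2 and LHX6. In control the order was GABBR1, GAD1, GABBR2, SLC32A1, ABAT, GPHN, GAD2 and LHX6, so ABAT and SLC32A1 changed places at levels within a few FPKM of each other. Without replicates it is not known whether neighbours in these orders differ. All 8 were well expressed for this table: even LHX6 exceeded 71.6% of all IDs in iron dextran and 71.9% in control, and GABBR1 exceeded 96.2% in iron dextran and 95.6% in control.

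**Figure D2:**
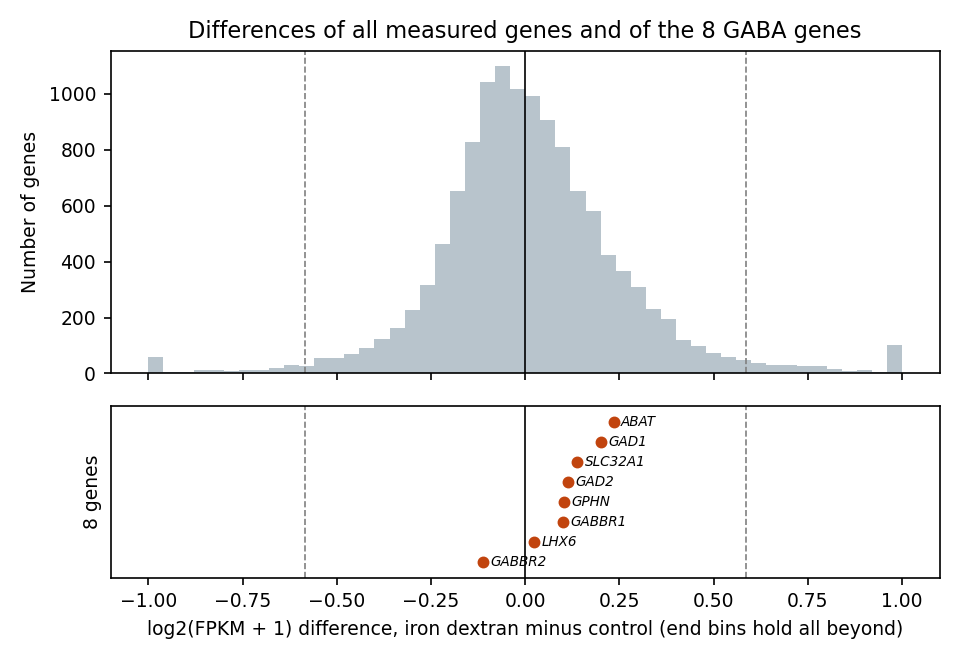
Upper panel: number of measured genes (vertical axis) by log2(FPKM + 1) in iron dextran minus that in control (horizontal axis), with values beyond 1 in either direction gathered in the end bins. Lower panel: the 8 genes on the same axis; dashed lines mark 1.5-fold, and all 8 lie inside them, between −0.11 (GABBR2) and 0.23 (ABAT).

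How far the small differences lean upward depended on how the samples were put on 1 scale. FPKM summed to 850165 in iron dextran and 924070 in control, and scaling the columns to the same total added 0.12 to every log2 ratio. The median of the 8 genes was then 0.22. Over all measured genes, 454 were then at least 1.5-fold higher and 132 lower, against 310 and 185 with the columns as deposited. GAD1, GAD2, SLC32A1, ABAT, GABBR1 and GPHN stayed above 0 under all scalings tried, and GABBR2 and LHX6 did not keep 1 sign. The highest value any of the 8 reached was 0.35, for ABAT at the same total, which is short of 1.5-fold.

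**Figure D3:**
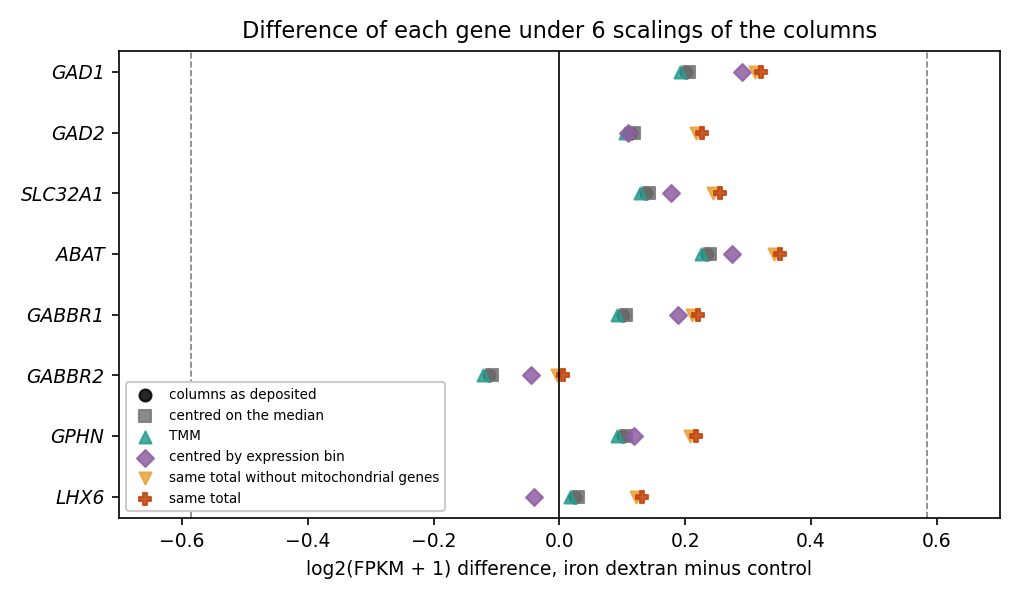
Value of log2(FPKM + 1) in iron dextran minus that in control (horizontal axis), for each of the 8 genes (rows) under 6 ways of scaling the columns, 1 symbol per scaling; dashed lines mark 1.5-fold. All symbols lie inside the dashed lines, and those of GABBR2 and LHX6 fall on both sides of 0.

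Other genes that supply or remove GABA showed no 1.5-fold difference. Of 20 listed genes of glutamate and glutamine supply and GABA breakdown, 14 were measured, with 5 above 0, 9 below and a median of −0.04. Both glutamine transporters with the largest differences of the list were below 0. SLC38A3 had 24.4 FPKM in iron dextran and 30.1 FPKM in control, and SLC38A5 had 34.0 FPKM in iron dextran and 40.4 FPKM in control. ADHFE1, which oxidises the GABA metabolite gamma-hydroxybutyrate, had 6.64 FPKM in iron dextran and 7.80 FPKM in control. ALDH5A1, which carries on from ABAT by oxidising succinic semialdehyde, had 19.3 FPKM in iron dextran and 20.1 FPKM in control, a difference of −0.06. The list's median turned to 0.08 with columns at the same total and to 0.05 when centred by expression level.

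Membrane transporters of GABA and related compounds were divided between both directions. Of 12 listed genes of membrane transport and vesicle loading, 6 were measured, 3 above 0 and 3 below, with a median of 0.03 (−0.02 without a filter on low values and when centred by expression level) and none past 1.5-fold. SLC6A12, the betaine and GABA transporter, had 5.76 FPKM in iron dextran and 5.38 FPKM in control, and the creatine transporter SLC6A8 had 57.7 FPKM in iron dextran and 65.3 FPKM in control. SLC6A13, a GABA transporter found mainly in the meninges, had 3.82 FPKM in iron dextran and 5.395 FPKM in control, a difference of −0.41. Markers of meninges, choroid plexus and ependyma had a median of −0.32 over 7 measured genes, 3 above 0 and 4 below, with none at 0, and summed to 73.0 FPKM in iron dextran and 75.3 FPKM in control. Their part in the SLC6A13 difference was not tested.

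Partners of the GABA-B receptor were centred near 0. Of 27 listed G proteins, channels, auxiliary subunits and regulators, 16 were measured, 9 above 0 and 7 below, with a median of 0.02 (−0.0078 at a mean of at least 5 FPKM) and none past 1.5-fold. KCNJ6, a subunit of the potassium channel that the receptor opens, had 2.02 FPKM in iron dextran and 1.37 FPKM in control, a difference of 0.35. NSF, an ATPase of membrane fusion, had 28.9 FPKM in iron dextran and 24.5 FPKM in control. The kinase GRK4 had 22.5 FPKM in iron dextran and 25.1 FPKM in control, and RGS7, which speeds the end of G protein signalling, had 18.3 FPKM in iron dextran and 19.8 FPKM in control. The auxiliary subunits KCTD8, KCTD12 and KCTD16 and the channel subunit KCNJ3 are not analysed here.

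Gephyrin's partners at the inhibitory synapse and in cofactor synthesis were likewise mixed. Of 26 listed genes 14 were measured, 6 above 0 and 8 below, with a median of −0.03 (0.08 with columns at the same total) and none past 1.5-fold. MOCS2, a subunit of molybdopterin synthase, had 7.98 FPKM in iron dextran and 5.74 FPKM in control, a difference of 0.41. MOCS1, of the first step of the same cofactor pathway, had 5.13 FPKM in iron dextran and 6.46 FPKM in control, a difference of −0.28. SLITRK3, a postsynaptic adhesion protein of inhibitory synapses, had 3.34 FPKM in iron dextran and 2.57 FPKM in control, and the glycine receptor subunit GLRA2 had 11.0 FPKM in iron dextran and 9.11 FPKM in control. NLGN2 and GLRB are not analysed here.

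The channel-forming receptors for the same transmitter had larger values. Of 18 listed GABA-A subunits 6 were measured, all 6 above 0, with a median of 0.40, or 0.13 over all 12 subunits with a row. GABRG1 had 8.17 FPKM in iron dextran and 4.22 FPKM in control and GABRA3 had 19.0 FPKM in iron dextran and 11.3 FPKM in control, and these 2 were at least 1.5-fold higher. The contrast between receptor and synthesis genes was not tested.

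Factors of interneuron origin and migration, the group to which LHX6 belongs, mostly lay within 1.5-fold. Of 23 listed genes 10 were measured, 7 above 0 and 3 below, with a median of 0.07, 1 higher and 1 lower by at least 1.5-fold. ETV1, an ETS transcription factor found in several neuron classes, had 19.2 FPKM in iron dextran and 11.9 FPKM in control, a difference of 0.65. LHX6 itself was at 0.02.

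**Figure D4:**
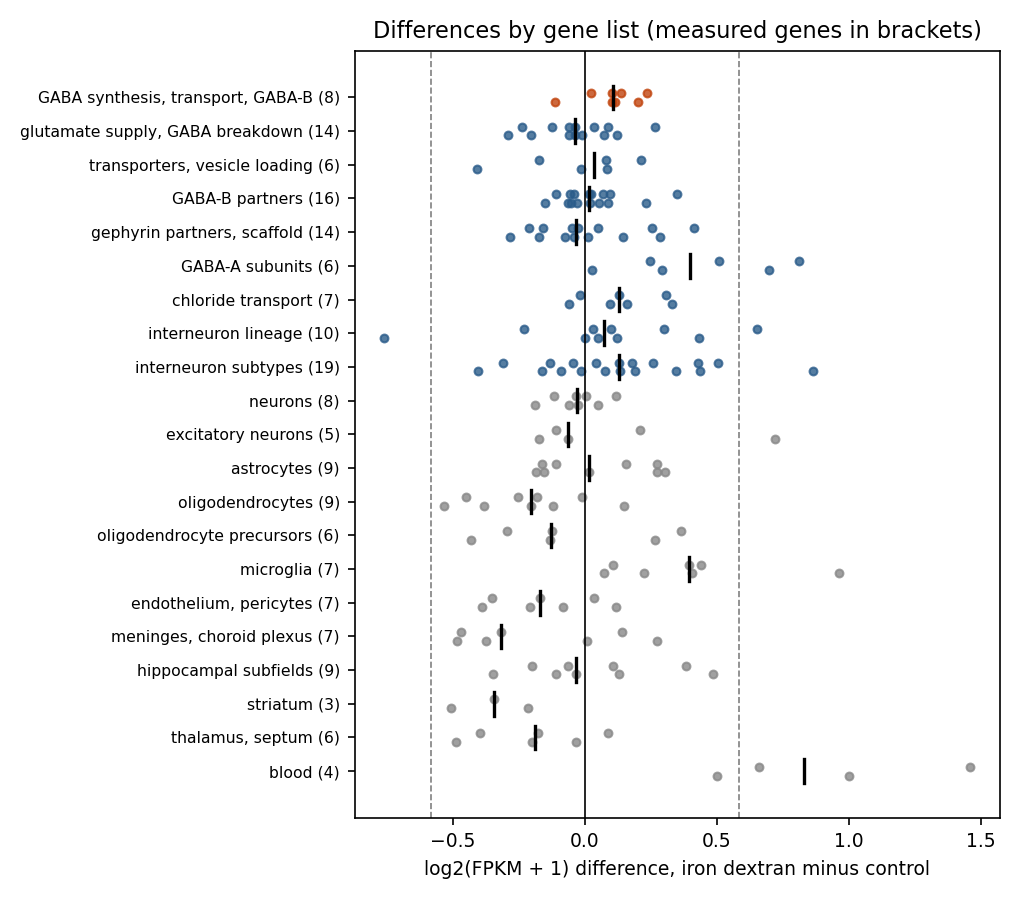
Value of log2(FPKM + 1) in iron dextran minus that in control (horizontal axis), of each measured gene by list (rows), with the list's median as a black bar and dashed lines at 1.5-fold; the 8 GABA genes are the top row, related lists are blue and cell type markers grey. The top row spans −0.11 to 0.23, and the medians farthest from 0 are those of the blood (0.83), GABA-A (0.40) and microglial (0.39) rows.

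None of the measured general neuronal and astrocyte markers differed by 1.5-fold. Of 5 measured excitatory neuron markers, 2 were above 0 and 3 below, and 1, CAMK2A, was at least 1.5-fold higher. CAMK2A had 3.93 FPKM in iron dextran and 1.995 FPKM in control, a difference of 0.72. At a mean of at least 5 FPKM, a limit that CAMK2A misses, 0 excitatory markers were past 1.5-fold. All 8 measured general neuronal markers lay between −0.19 (SYN1) and 0.12 (MAP2), with a median of −0.03 (0.09 with columns at the same total). They summed to 4039 FPKM in iron dextran and 4188 FPKM in control. Relative to the mean difference of these general neuronal markers, 7 of the 8 GABA genes were above 0, with a median of 0.14. The 9 measured astrocyte markers, 5 above 0 and 4 below, had a median of 0.02 (0.13 with columns at the same total) and lay between −0.19 (FGFR3) and 0.30 (SLC1A3), and 6 of the 8 GABA genes were above their mean. Relative to the mean of 19 measured interneuron subtype markers, 0.13, only ABAT, GAD1 and SLC32A1 were above, and the median of the 8 was −0.02. The median of the interneuron subtype markers was itself 0.13, 0.24 with columns at the same total and 0.03 at a mean of at least 5 FPKM. Whether the share of interneurons in the tissue had a part in this was not tested.

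Markers of several other cell types had larger differences. Blood genes were higher in iron dextran, where the 4 measured genes summed to 521 FPKM against 190.5 FPKM in control, and 3 of them, HBB, HBM and ALAS2, were past 1.5-fold; globin values depend on how reads shared by near-identical globin genes were assigned. Microglial markers had a median of 0.39 over 7 genes, all above 0, summing to 126 FPKM in iron dextran and 98.4 FPKM in control. Oligodendrocyte markers had a median of −0.21 (−0.09 with columns at the same total), with 1 of 9 above 0, and summed to 8753 FPKM in iron dextran and 9994 FPKM in control. Of 10 markers of the striatum, a neighbouring region rich in GABA neurons, 3 were measured and all 3 were below 0, with a median of −0.34. PPP1R1B was the highest of them, at 27.8 FPKM in iron dextran and 32.5 FPKM in control. Under the limit, DRD1 had 0.19 FPKM in iron dextran and 0.07 FPKM in control, and DRD2 had 0.51 FPKM in iron dextran and 0.46 FPKM in control. ISL1 and FOXP2 were listed at 0 in both samples. Without a filter on low values the striatal median was 0. Of 14 hippocampal subfield markers 9 were measured, 4 above 0 and 5 below, with a median of −0.03 (0.08 with columns at the same total). Their differences ran from −0.35 (NECTIN3) to 0.48 (C1QL3). The highest level among the 9 was that of RGS14, at 89.8 FPKM in iron dextran and 83.3 FPKM in control. Another 3 markers, PROX1, DSP and ZBTB20, had a row under the limit. PROX1 had 0.86 FPKM in iron dextran and 0.76 FPKM in control. DSP had 0.24 FPKM in iron dextran and 0.55 FPKM in control, and ZBTB20 had 0.08 FPKM in iron dextran and 0.15 FPKM in control. The part of these cell types in the GABA gene differences was not tested.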

How the data were processed

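RNA of 1 iron dextran and 1 control sample of piglet hippocampus was sequenced. The authors deposited 1 table of FPKM values, with pig Ensembl gene IDs as rows and a column for each sample; columns were matched by the letter shared with the sample title. Per the submitters' processing notes, cutadapt 1.2.1 trimmed the reads and TopHat aligned them, with builds Sscrofa10.2 and susScr3 named. The program behind the FPKM, the annotation, the use of strand and the pooling of the 2 names per sample are not stated in any source used here, so no coordinates are printed. FPKM depends on the annotated gene length and on the library total, so abundant genes shift all others.

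Symbols came from a table pairing IDs with names, which matched 11804 of 25322 IDs. Differences are of log2(FPKM + 1) with a pseudocount of 1, over the 12557 IDs with a mean FPKM of at least 1; calls of higher and lower start at 1.5-fold. No test could be made on single samples. The number of fragments is unknown. Steps among 690 genes with control FPKM under 0.1, read as whole fragments, gave iron dextran a depth 1.06 times that of control. Mitochondrially encoded genes took 29.0% of the total in iron dextran and 29.5% in control.

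The members and lists were chosen with earlier results of these data known. Named are all members, ALDH5A1, SLC6A13, KCTD12, KCTD16 and GLRB whatever their values (the last 3 had no value here), the genes past 1.5-fold in each related list or otherwise its 4 largest differences, and a few markers; some genes that this rule takes are left out of the text; the rule's 2 markers per cell type are given only where a cell type bears on the members. The lists of excitatory neurons, oligodendrocyte precursors, endothelium and pericytes, and thalamus and septum had medians of −0.07, −0.13, −0.17 and −0.19, and of 0.02, −0.01, −0.06 and −0.10 with columns at the same total. Alternatives were pseudocounts, filters, folds and 5 other scalings, among them TMM, the trimmed mean of M values (30% of M and 5% of A trimmed per side, unweighted), and centring within 20 bins of expression. The scaling and calling steps were run on simulated columns with known changes. The simulated noise held no counting error, so that run does not measure the error of these data. Python 3.11.15, numpy 2.4.6 and pandas 2.3.3 were used.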

Additional observations from a re-analysis of the deposited data

How the results depend on the processing

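With 1 sample per group no replicate could be left out. No paired analysis was possible because each group holds 1 sample. Under all alternatives of pseudocount, filter, scaling and fold, 0 of the 8 GABA genes were past the fold in either direction. Their median of 0.11 was 0.22 with columns at the same total and 0.21 at the same total without the mitochondrially encoded genes; it lay between 0.098 (TMM) and 0.15 (centred by expression bin) under the other planned settings. In comparisons chosen after seeing the data, it was 0.14 relative to neuronal, 0.0618 to astrocyte, 0.33 to oligodendrocyte and −0.0195 to interneuron subtype markers. All 6 ratios between members kept their direction with FPKM + 1. Counts over all genes, 310 higher and 185 lower, were 558 and 332 with a pseudocount of 0.1 and 599 and 357 with 0.01. They were 113 and 71 when the mean had to reach 5 FPKM, 93 and 53 at 2-fold, and 1106 and 748 at a fold of 25%; without a filter they were 434 and 282. Columns at the same total gave 454 and 132, and without the mitochondrially encoded genes 439 and 136. The number of fragments is unknown, so counting error could not be given.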

Other observations

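Genes that set the chloride gradient on which GABA-A inhibition depends were measured for 7 of 12 listed names. Of these, 5 were above 0 and 2 below, with a median difference of 0.13 (0.24 with columns at the same total) and none past 1.5-fold. SLC12A5, the chloride extruder of mature neurons, had 26.5 FPKM in iron dextran and 24.2 FPKM in control. SLC12A2, which brings chloride in, had 4.91 FPKM in iron dextran and 4.29 FPKM in control. The level of the chloride channel and exchanger gene CLCN3 was 29.5 FPKM in iron dextran and 23.7 FPKM in control, and carbonic anhydrase CA2 had 34.9 FPKM in iron dextran and 27.5 FPKM in control.

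Interneuron subtype markers spread more widely than the GABA genes. Of 26 listed genes 19 were measured, 12 above 0 and 7 below, with a median of 0.13 (0.24 with columns at the same total, 0.03 at a mean of at least 5 FPKM), a lowest value of −0.41 and a highest of 0.86. The cannabinoid receptor CNR1, found on the endings of cholecystokinin interneurons, was the 1 marker past 1.5-fold, with 6.36 FPKM in iron dextran and 3.04 FPKM in control. With pseudocounts of 0.1 and 0.01 there were 2 such markers, and at a mean of at least 5 FPKM, a limit that CNR1 misses, there were 0.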
